A study of Mus musculus with 9 samples.

Results

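Fragments of small nuclear RNA (snRNA) and small nucleolar RNA (snoRNA) were followed through 9 small RNA libraries of mouse serum. Their members are all distinct read sequences that the authors annotated as snRNA or as snoRNA. This gave 2327 entries for snRNA and 3505 for snoRNA over the 9 libraries, together 5832 of 74900 entries (7.79%) for small RNAs other than miRNA. An entry is 1 sequence in 1 library. It carries a count and an abundance rank within its own library, with no gene name, so no snRNA or snoRNA gene is named here and a sequence could not be traced from one library to another. The choice of members used the annotation alone and no measured value, but it was made with earlier results of these data known.

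snRNAs are short nuclear RNAs of which most form, with proteins, the spliceosome that removes introns from messenger RNA precursors. snoRNAs work in the nucleolus, where those of the C/D box family guide the methylation of ribose and those of the H/ACA box family the conversion of uridine to pseudouridine, mainly in ribosomal RNA. Pieces of both kinds are found outside cells, including in serum, next to miRNAs and to the cleaved tRNA fragments that dominate many serum libraries. In the GENCODE M21 annotation of the mouse genome (build GRCm38), 1383 genes are typed as snRNA, with a median length of 107 bases and a range of 54 to 200. The annotation holds 1507 snoRNA genes, with a median of 127 bases and a range of 35 to 325. Of the snoRNA genes, 662 (43.9%) lie within a longer coding or noncoding gene on the same strand, against 302 (21.8%) of the snRNA genes. The authors assigned classes with other annotations (UCSC and Ensembl), so these gene numbers describe the classes and not the reads.

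Serum came from healthy 129/SVj mice of both sexes, 2 to 9 months old. RNA of the samples labelled as serum pools A, B and C was split over 3 groups, which gave 3 libraries in each. In the beads group, 5′ tRNA fragments cut in the anticodon loop were captured with biotin-carrying DNA probes and taken out on streptavidin beads. In the RNase H group, the same targets were paired with such probes and cut by RNase H, an enzyme that digests the RNA of an RNA and DNA duplex, and the control group had no depletion. The probes were made against these tRNA fragments, so neither snRNA nor snoRNA was an intended target in any group. Every pool mixed animals, and the methods describe 200 µl aliquots of serum combined from 3 mice. If the pools are aliquots of the same serum, the spread between them is technical and every p-value refers to that spread. All groups shared the extraction kit, the library kit, 15 PCR cycles and selection of library fragments of 125 to 153 bp. For both depletions the paper also describes heating with the probes, slow cooling and ethanol precipitation, and for RNase H a DNase I digestion. It describes none of these steps for control, so their effects cannot be told apart from those of the depletion.

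Annotated counts, the sum over miRNA and all other classes, ran from 3904095 to 4920457 in control libraries and from 2796718 to 3538246 in beads libraries. RNase H libraries held 47252 to 160581, and their miRNA counts were 2040, 1977 and 1199 in pools A, B and C. A share of 3 counts, used here as the floor, was at most 0.000107% in control and beads libraries and between 0.00187% and 0.00635% in RNase H libraries. Confidence intervals and floors cover counting error only, because the reads were amplified and carry no molecular identifiers.

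Both classes had more counts in every beads library than in any control library, and fewer in every RNase H library. Control libraries of pools A, B and C held 349, 562 and 388 snRNA counts (mean 433 ± 113, SD, n = 3). The snRNA counts of the beads libraries were 4272, 4262 and 4768, with a mean of 4434 ± 289 (SD, n = 3). RNase H libraries held 239, 79 and 90 snRNA counts (mean 136 ± 89.4, SD, n = 3). The 3 groups did not overlap, and the RNase H library of pool A stood well above the other two of its group.

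snoRNA was the more frequent class in control and beads libraries and the less frequent one in RNase H libraries. Control libraries held 593, 912 and 728 snoRNA counts in pools A, B and C, with a mean of 744.3 ± 160 (SD, n = 3). Beads libraries held 6051, 5952 and 6202, with a mean of 6068 ± 126 (SD, n = 3). RNase H libraries held 120, 51 and 36, with a mean of 69 ± 44.8 (SD, n = 3). As for snRNA, the groups were apart and pool A was the highest of the RNase H libraries.

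**Figure D1:**
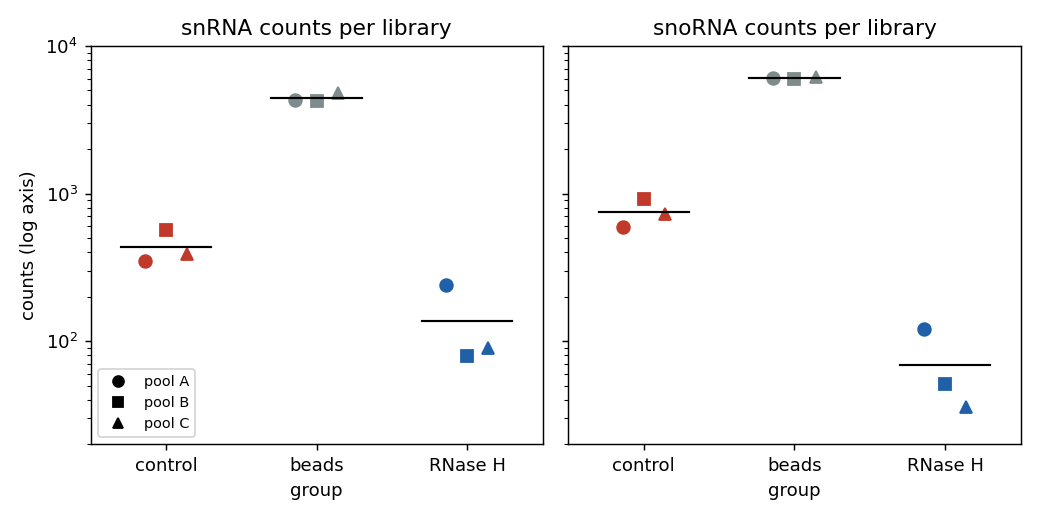
Counts of snRNA (left) and snoRNA (right) per library on a log axis, by group; each point is 1 library, its shape the serum pool, and the line the group mean. Beads libraries held 4262 to 4768 snRNA and 5952 to 6202 snoRNA counts, above every control library, and RNase H libraries held at most 239 and 120, below every control library.

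The mean snRNA count of beads libraries was 10.2 times that of control libraries, and the ratio within pools was 12.2, 7.58 and 12.3. For snoRNA the ratio of means was 8.15, with 10.2, 6.53 and 8.52 within pools. A raw rise was not particular to these 2 classes. miRNA counts were 205185 to 330676 in control and 1822088 to 1995956 in beads libraries, while tRNA counts were lower in beads libraries. After RNase H, the snRNA mean was 0.314 times that of control libraries, and the ratio was 0.685, 0.141 and 0.232 within pools. The snoRNA mean was 0.0927 times the control mean, with 0.202, 0.0559 and 0.0495 within pools. Each of these 4 comparisons gave a two-sided exact permutation p of 0.1, which is the lower bound for groups of 3, so none could pass a threshold of 0.05. The RNase H ratios rest in part on pool A, since without it they were 0.178 for snRNA and 0.0530 for snoRNA. Restricted to sequences counted at least 2 times, the mean snoRNA count of RNase H libraries was 30.3 ± 29.7 against 581 ± 144 (SD, n = 3) in control libraries, a ratio of 0.0522. This cut removes a larger part of shallow libraries, so the ratio is not free of depth.

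As a share of annotated counts, both classes were higher in both depleted groups than in control libraries. snRNA made up 0.00838%, 0.0114% and 0.00994% of control libraries in pools A, B and C. In beads libraries its share was 0.128%, 0.152% and 0.135%, and in RNase H libraries 0.149%, 0.167% and 0.114%. The depleted libraries of both kinds thus lay at about the same level, with means of 0.138% ± 0.0128 for beads and 0.143% ± 0.0273 for RNase H against 0.00991% ± 0.00152 for control (SD, n = 3 each). The widest Wilson 95% confidence interval was that of the RNase H library of pool B, from 0.134% to 0.208%, and it held the values of 2 beads libraries.

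The share of snoRNA did not overlap between the 3 groups when all sequences were counted. It was 0.0142%, 0.0185% and 0.0186% in control libraries and 0.181%, 0.213% and 0.175% in beads libraries. RNase H libraries lay between them at 0.0747%, 0.108% and 0.0454%. The mean share was 11.1 times the control mean after beads and 4.44 times after RNase H, against 13.9 and 14.4 times for snRNA, and each of the 4 comparisons with control gave the exact permutation p of 0.1. These factors would be smaller per mapped read. By the mean mapped reads given in the paper, annotated counts left out a larger part of depleted than of control libraries. Without sequences counted once, the snoRNA share was 0.0314% ± 0.0222 in RNase H and 0.0133% ± 0.00216 in control libraries (SD, n = 3 each), and the groups overlapped (exact permutation p of 0.4). Such sequences held on average 62.8% of snoRNA counts in RNase H libraries and 22.3% in the deeper control libraries. The cut thus takes more from shallow libraries, and the overlap does not show what the difference rests on.

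These shares move with tRNA, which held between 3648482 and 4580374 counts in control libraries, 742691 to 1644636 in beads libraries and 10528 to 50119 in RNase H libraries. With tRNA left out of the total, snRNA made up 0.160% ± 0.00750 in control, 0.225% ± 0.0238 in beads and 0.192% ± 0.0411 in RNase H libraries (SD, n = 3 each). The beads libraries still lay above control (exact permutation p of 0.1), whereas the RNase H and control libraries overlapped (exact permutation p of 0.4). For snoRNA the same total gave 0.277% ± 0.00845 in control and 0.307% ± 0.0191 in beads libraries (exact permutation p of 0.1). For the RNase H group it gave 0.102% ± 0.0409 (SD, n = 3), so the direction against control turned, with an exact permutation p of 0.1. With piRNA left out as well, the RNase H shares were 3.17% ± 0.694 for snRNA and 1.60% ± 0.340 for snoRNA, against 0.163% ± 0.00762 and 0.282% ± 0.00868 in control libraries. piRNA held 33538 to 104282 counts in RNase H libraries and 3528 to 5262 in control libraries.

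The balance of the 2 classes depends on none of these totals, and it differed between the groups. Control libraries held 1.70, 1.62 and 1.88 snoRNA counts per snRNA count in pools A, B and C, with a mean of 1.73 ± 0.130 (SD, n = 3). In beads libraries the ratio was 1.42, 1.40 and 1.30, with a mean of 1.37 ± 0.0618 (SD, n = 3). In RNase H libraries it was 0.502, 0.646 and 0.400, with a mean of 0.516 ± 0.123 (SD, n = 3). The order of control, beads and RNase H was the same in all 3 pools and no library of one group reached the range of another. Against control, the mean difference was -0.361 for beads and -1.22 for RNase H, each with an exact permutation p of 0.1.

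Expressed as a part of both classes together, snoRNA held 62.9% (Wilson 95% confidence interval 59.8% to 66.0%), 61.9% (59.4% to 64.3%) and 65.2% (62.4% to 68.0%) of the counts in control pools A, B and C. The beads libraries held 58.6% (57.7% to 59.6%), 58.3% (57.3% to 59.2%) and 56.5% (55.6% to 57.5%). The interval of each beads library lay below that of the control library in the same pool, though the limits nearly touched in pools A and B. These intervals cover counting error only, and miRNA counts of replicate libraries differed by more than that. The gaps between intervals thus do not test the difference between groups. For RNase H the values were 33.4% (28.7% to 38.5%), 39.2% (31.3% to 47.8%) and 28.6% (21.4% to 37.0%), all with upper limits under an even split.

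**Figure D2:**
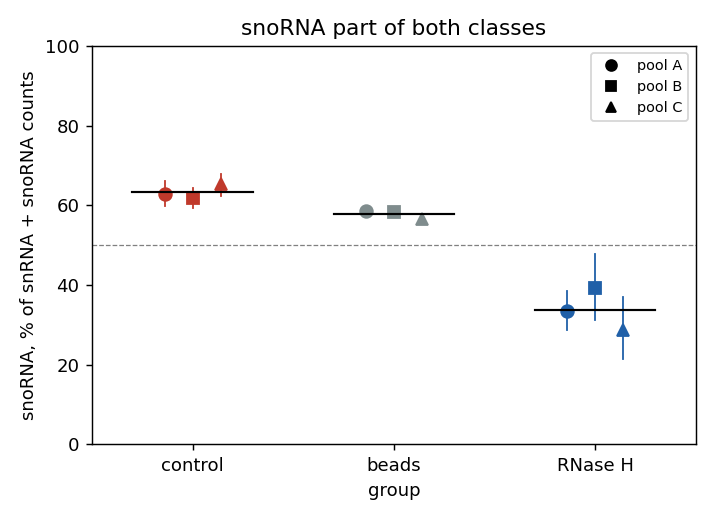
Part of snoRNA in the summed snRNA and snoRNA counts of each library, in percent, by group; points are libraries, vertical bars Wilson 95% confidence intervals (counting error only), horizontal lines group means, and the dashed line an even split. Control libraries lie at 61.9% to 65.2%, beads libraries at 56.5% to 58.6% and RNase H libraries at 28.6% to 39.2%.

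The groups kept this order when single sequences or the rarest ones were left out. Without the most abundant sequence of each class, the ratio was 1.84 ± 0.179 in control, 1.46 ± 0.0415 in beads and 0.478 ± 0.0872 in RNase H libraries (SD, n = 3 each). With sequences counted once left out, it was 1.72 ± 0.124, 1.36 ± 0.0631 and 0.277 ± 0.166, though this cut takes more from classes with few counts. When distinct sequences were counted in place of reads, the ratio of snoRNA to snRNA sequences was 1.75 ± 0.217 in control and 1.52 ± 0.0618 in beads libraries, and these overlapped (exact permutation p of 0.2). It was 0.835 ± 0.213 in RNase H libraries, below every control library (exact permutation p of 0.1).

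Measured against miRNAs, snRNA was slightly more frequent in beads than in control libraries, and snoRNA less so. For each 1000 miRNA counts, control libraries held 1.70, 1.70 and 1.56 snRNA counts in pools A, B and C, and beads libraries 2.22, 2.13 and 2.62. The corresponding snoRNA values were 2.89, 2.76 and 2.93 in control and 3.14, 2.98 and 3.40 in beads libraries. No beads library fell within the control range for either class. The ratio of means was 1.40 for snRNA and 1.11 for snoRNA, each with an exact permutation p of 0.1. Without the most abundant sequence of each library, the snoRNA values overlapped, at 3.01 ± 0.236 in beads and 2.69 ± 0.115 in control libraries (SD, n = 3 each, exact permutation p of 0.2). Without sequences counted once, they were further apart, at 2.98 ± 0.200 and 2.22 ± 0.00809 (exact permutation p of 0.1). Such sequences held on average 6.26% of snoRNA counts in beads and 22.3% in the shallower control libraries. The cut thus lowers control values more, and the wider gap adds no evidence of a difference.

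Both class sums were also tested in an edgeR quasi-likelihood fit beside all miRNAs, with library sizes taken from the miRNAs and Benjamini-Hochberg adjustment. Relative to the miRNAs, snRNA rose in beads libraries by 0.54 ± 0.094 on the log2 scale (SE), with an edgeR adjusted p of 4.13e-05. snoRNA was 0.20 ± 0.082 higher on the same scale, which did not pass the threshold (edgeR adjusted p of 0.0756). With the serum pool as a block, the snoRNA value was also 0.20 and passed it (edgeR adjusted p of 0.0302). Thus 1 of the 2 classes was called, in a comparison in which 26.3% of the 308 features tested were called, 18.2% higher and 8.12% lower. The change of snRNA was of a size common among miRNAs, of which 61 of 303 had a larger log2 fold change, and 117 of 303 exceeded snoRNA. The median miRNA stood at 0.08. Of the other class sums in this fit, piRNA (0.44) and tRNA (-4.54) were called, and rRNA (-0.38) was not.

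Both classes were far more frequent relative to miRNAs in RNase H than in control libraries. For each 1000 miRNA counts these libraries held 117, 40.0 and 75.1 snRNA counts in pools A, B and C, with a mean of 77.4 ± 38.7 (SD, n = 3) against 1.65 ± 0.0809 in control libraries. They held 58.8, 25.8 and 30.0 snoRNA counts, with a mean of 38.2 ± 18.0 (SD, n = 3) against 2.86 ± 0.0890. Control and RNase H libraries were widely separated for both classes, and pool A was again the highest. The means differed by a factor of 46.8 for snRNA and 13.4 for snoRNA (exact permutation p of 0.1 each). Without sequences counted once, the snoRNA values were smaller, at 15.6 ± 13.8 in RNase H and 2.22 ± 0.00809 in control libraries (SD, n = 3 each, exact permutation p of 0.1). That cut takes more from the shallow RNase H libraries. In edgeR, snRNA rose by 5.37 ± 0.28 (SE, adjusted p of 9.72e-11) and snoRNA by 3.59 ± 0.22 (SE, adjusted p of 6.91e-10) on the log2 scale. Both classes were called higher, where 14.0% of 143 features were called, 9.09% higher and 4.90% lower. Only 2 of 138 miRNAs had a larger log2 fold change than snRNA and 4 of 138 a larger one than snoRNA, and the median miRNA stood at -0.26. Of the other class sums in this fit, piRNA (11.0) and rRNA (6.81) rose more than snRNA and snoRNA, while tRNA stood at -0.31. These changes are relative to miRNA counts of 1199 to 2040 per library, and the raw counts of both classes were lower than in control libraries.

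Other classes gave other orders. For each 1000 rRNA counts, snRNA reached 123, 211 and 225 counts in control, 301, 388 and 313 in beads and 63.3, 73.3 and 59.0 in RNase H libraries. The 3 groups did not overlap (exact permutation p of 0.1 for each depletion). The snoRNA values were 209, 342 and 422 in control and 426, 541 and 408 in beads libraries, which overlapped (exact permutation p of 0.2), and 31.8, 47.3 and 23.6 in RNase H libraries, which were below all control libraries. Thus, relative to rRNA, both classes were lower in the RNase H group, where relative to miRNAs they were higher.

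Relative to piRNA, snRNA overlapped between control and beads libraries, while snoRNA did not. For each 1000 counts annotated as piRNA, snRNA held 98.9, 107 and 95.2 counts in control and 104, 116 and 105 in beads libraries, with overlapping groups (exact permutation p of 0.3). snoRNA held 168, 173 and 179 in control and 147, 162 and 137 in beads libraries, so that all beads libraries were lower (exact permutation p of 0.1). The RNase H values were 2.29, 2.36 and 1.52 for snRNA and 1.15, 1.52 and 0.606 for snoRNA.

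**Figure D3:**
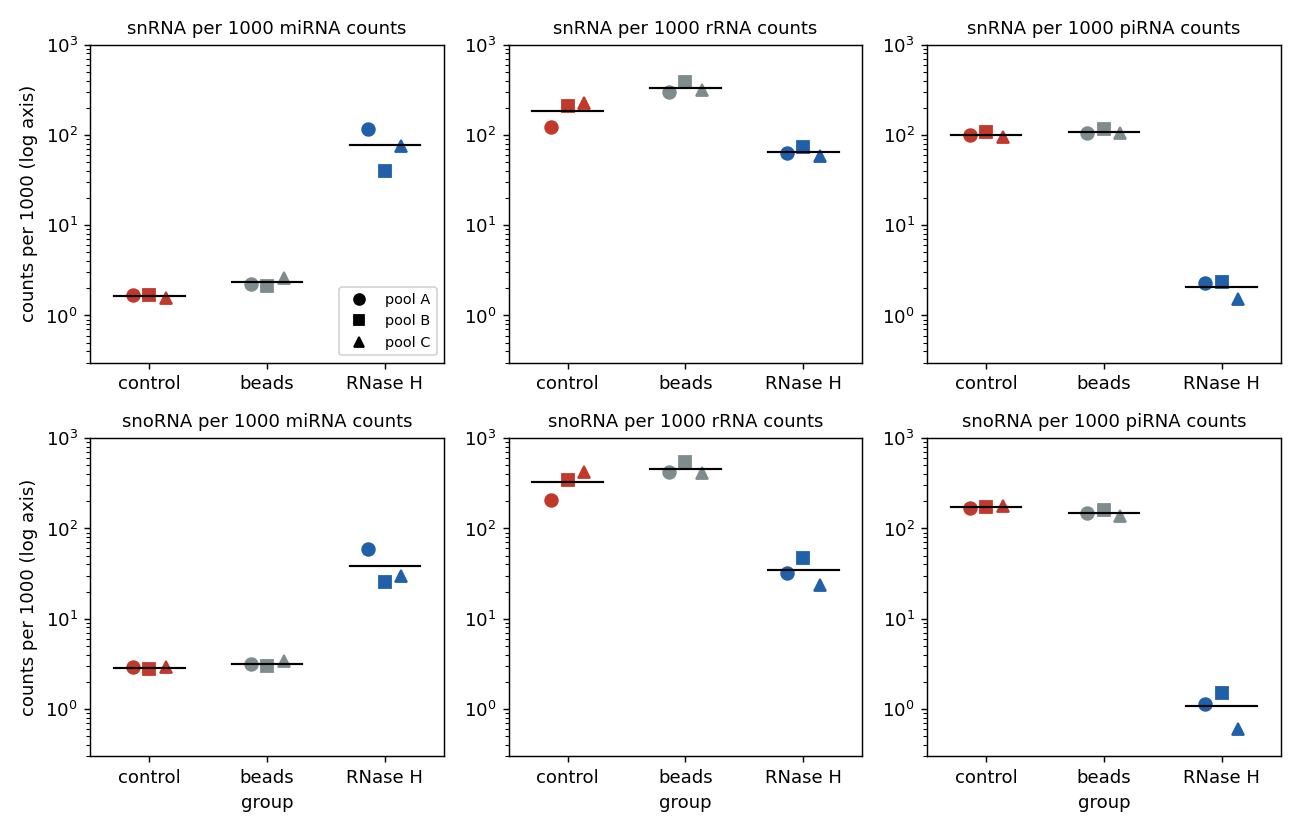
snRNA (top) and snoRNA (bottom) counts for each 1000 counts of miRNA, rRNA and piRNA (columns), on log axes; points are libraries, shapes serum pools and lines group means. RNase H libraries lie above control for miRNA (77.4 against 1.65 snRNA counts on average) and below control for rRNA (65.2 against 186) and piRNA (2.05 against 100.3).

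The number of distinct sequences followed the counts. Control libraries listed 121, 184 and 141 distinct snRNA sequences in pools A, B and C, beads libraries 567, 547 and 602, and RNase H libraries 87, 29 and 49. For snoRNA, control libraries listed 223, 276 and 268, beads libraries 902, 814 and 891, and RNase H libraries 68, 31 and 32. Since deeper libraries list more sequences, the number expected in an equal draw of class counts was computed for each library.

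At 349 snRNA counts, control libraries were expected to show 128.7 ± 6.75 distinct sequences and beads libraries 131.6 ± 5.55 (SD, n = 3 each). The groups overlapped, with an exact permutation p of 0.5. At 593 snoRNA counts, the numbers were 222.2 ± 12.4 in control and 241.3 ± 11.0 in beads libraries, which also overlapped (exact permutation p of 0.2). Within pools, the beads library exceeded its control by 25.3, 19.1 and 12.8 snoRNA sequences. For snRNA the differences within pools were 13.9, -8.42 and 3.11 and thus differed in sign.

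RNase H libraries could be compared only at shallow draws. At 79 snRNA counts they were expected to show 37.7 ± 8.08 distinct sequences against 45.4 ± 0.823 in control libraries (SD, n = 3 each, exact permutation p of 0.2). At 36 snoRNA counts the numbers were 26.6 ± 4.85 and 29.1 ± 0.943 (exact permutation p of 0.5). The RNase H library of pool B had the fewest for snRNA, 16.4 below its control library, and the groups overlapped in both classes. Equal draws from all annotated counts instead of class counts gave 33.1 ± 3.66 snRNA and 25.1 ± 5.77 snoRNA sequences in RNase H libraries. Control libraries gave 4.35 ± 0.607 and 7.62 ± 1.06. Such draws hold more counts of a class where its share is larger, so this turned direction follows from the shares given above. It says nothing about distinct sequences at equal class counts.

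**Figure D4:**
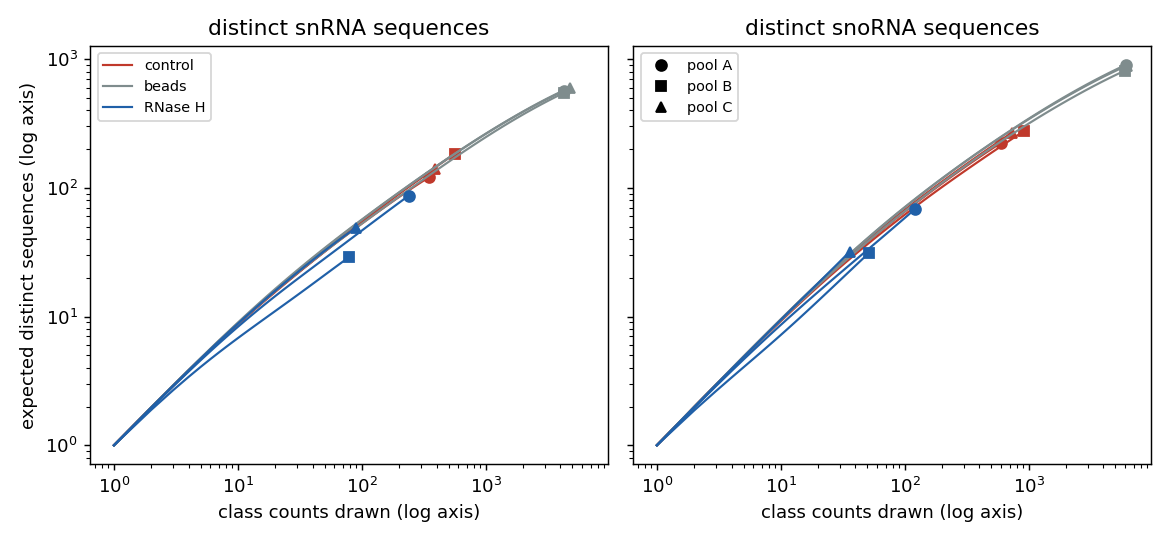
Expected number of distinct snRNA (left) and snoRNA (right) sequences against the class counts drawn from a library, both on log axes; lines are libraries coloured by group, and the symbol at the end of each line marks all counts of that library (shape, serum pool). Control and beads curves nearly coincide for snRNA (128.7 and 131.6 sequences at 349 counts). For snoRNA the beads library lies above its control in each pool at 593 counts (means 241.3 and 222.2), with overlapping groups. The lowest curve for snRNA is the RNase H library of pool B, which ends at 29 sequences.

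At equal depth, every library showed more distinct snoRNA than snRNA sequences. When both classes of a library were drawn to the lower of its 2 class sums, control libraries showed 179.2 ± 22.0 snoRNA and 148.7 ± 32.2 snRNA sequences (SD, n = 3). The excess of snoRNA was 37.6, 18.4 and 35.6 sequences in pools A, B and C. In beads libraries it was 200.6, 150.5 and 190.7, and in RNase H libraries 14.8, 9.70 and 6.71. The draws held 349 to 562 counts in control, 4262 to 4768 in beads and 36 to 120 in RNase H libraries. The size of the excess depends on the draw, so it cannot be compared between groups. Each group gave an exact sign-exchange permutation p of 0.25, the smallest that 3 libraries allow.

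Drawn to 36 counts, the lowest class sum of any library, control libraries showed 29.1 ± 0.943 snoRNA and 25.0 ± 0.279 snRNA sequences. For comparison, the same draw gave 28.6 ± 0.385 piRNA, 17.6 ± 2.01 rRNA and 12.0 ± 0.0498 tRNA sequences (SD, n = 3 each). Beads libraries showed 30.1 ± 0.878 snoRNA and 25.8 ± 0.728 snRNA sequences. There piRNA reached 29.2 ± 1.44, tRNA 19.4 ± 1.47 and rRNA 21.5 ± 1.82. In these draws both classes thus had more distinct sequences on average than tRNA and rRNA in control and beads libraries. The order was another one after RNase H, with 26.6 ± 4.85 for snoRNA, 24.7 ± 2.77 for rRNA, 21.4 ± 4.40 for snRNA and 20.1 ± 2.28 for tRNA. There piRNA was the lowest, at 17.9 ± 1.28.

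A few sequences held a large part of each class. In control libraries the most abundant snRNA sequence had 32, 67 and 49 counts in pools A, B and C, which was 9.17%, 11.9% and 12.6% of the class. In beads libraries it had 429, 453 and 571 counts, or 10.0%, 10.6% and 12.0%. The shares of the groups overlapped, with means of 11.2% ± 1.83 and 10.9% ± 0.991 (SD, n = 3 each, exact permutation p of 0.9). Among all sequences that were ranked in its library, this leading sequence had rank 2423, 1732 and 1813 in control and 813, 749 and 685 in beads libraries.

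The leading snoRNA sequence held a smaller part of its class. It had 34, 63 and 34 counts in control libraries (5.73%, 6.91% and 4.67%) and 301, 391 and 270 in beads libraries (4.97%, 6.57% and 4.35%). Again the groups overlapped (exact permutation p of 0.6). Its rank was 2307, 1799 and 2314 in control and 1093, 821 and 1190 in beads libraries, so that many other sequences were more abundant in both groups. Ranks also run over sequences without a listed class, so they do not show which classes these were. Whether the leading sequence of one library is that of another could not be determined from ranks.

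The leading sequences of RNase H libraries rested on few counts. For snRNA they had 33, 22 and 10 counts in pools A, B and C, or 13.8%, 27.8% and 11.1% of the class, and overlapped with control (exact permutation p of 0.3). For snoRNA they had 20, 19 and 5 counts, or 16.7%, 37.3% and 13.9%, above every control library (exact permutation p of 0.1). The mean difference from control was 16.8 percentage points with all pools and 10.1 without pool B. The Wilson 95% confidence interval of the pool C value ran from 6.08% to 28.7% and included the highest control value, 6.91%. This share also depends on the number of counts, which was 36 to 120 in RNase H and 593 to 912 in control libraries, and the index described next, which does not, overlapped between these groups. In pool B, the leading snoRNA sequence was followed by sequences with 2 counts each, and in pool C by sequences counted once.

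The 10 most abundant sequences together held 48.2% ± 0.905 of snRNA counts in control, 44.0% ± 2.68 in beads and 61.3% ± 13.7 in RNase H libraries (SD, n = 3 each). Neither depleted group overlapped with control (exact permutation p of 0.1 each), but this share also depends on how many counts a class has. For snoRNA the shares were 33.4% ± 3.26, 28.6% ± 3.41 and 49.5% ± 10.0, and the beads libraries overlapped with control (exact permutation p of 0.2). The chance that 2 reads of a class drawn at random have the same sequence (unbiased Simpson index), which does not grow with depth, was 3.38% ± 0.212 for snRNA in control and 2.97% ± 0.306 in beads libraries. It was 1.59% ± 0.337 and 1.29% ± 0.288 for snoRNA. Both pairs of groups overlapped (exact permutation p of 0.2 and 0.3). Within pools A, B and C, however, the index was lower in the beads library each time, with 2.63%, 3.23% and 3.05% against 3.18%, 3.61% and 3.36% in control libraries for snRNA. The snoRNA values were 1.16%, 1.62% and 1.09% against 1.53%, 1.94% and 1.28%. An exact sign-exchange permutation test over 3 pools cannot give a p under 0.25. In RNase H libraries the index ranged from 3.12% to 11.6% for snRNA and from 1.59% to 13.6% for snoRNA, highest in pool B for both classes. Against control, the exact permutation p was 0.4 for snRNA and 0.2 for snoRNA, and the snoRNA value of pool C lay within the control range of 1.28% to 1.94%.

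Taken as the inverse of that index, the effective number of equally frequent snRNA sequences was 31.4, 27.7 and 29.8 in control and 38.0, 31.0 and 32.7 in beads libraries. For snoRNA it was 65.2, 51.4 and 78.3 in control and 86.1, 61.6 and 91.4 in beads libraries, lowest in pool B of both groups. The 2 classes did not overlap in control and beads libraries, and snoRNA was above snRNA in each of these 6 libraries. The RNase H libraries gave 21.4, 8.65 and 32.0 for snRNA and 24.6, 7.37 and 63.0 for snoRNA, so that pool B gave the reverse order.

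The most abundant sequences that together made up at least 50% of the counts numbered 11, 11 and 12 for snRNA in control and 15, 12 and 15 in beads libraries. For snoRNA they numbered 24, 21 and 27 in control and 37, 27 and 37 in beads libraries. These numbers were not brought to equal depth. At the other end, sequences counted once made up 63.2% ± 3.95 of distinct snRNA sequences and 63.8% ± 1.70 of distinct snoRNA sequences in control libraries (SD, n = 3 each). In the deeper beads libraries these shares were 44.7% ± 1.36 and 43.7% ± 0.848. In RNase H libraries they were 68.1% ± 2.51 for snRNA and 90.3% ± 6.53 for snoRNA, where in pool C only 1 of 32 snoRNA sequences was counted more than once.

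**Figure D5:**
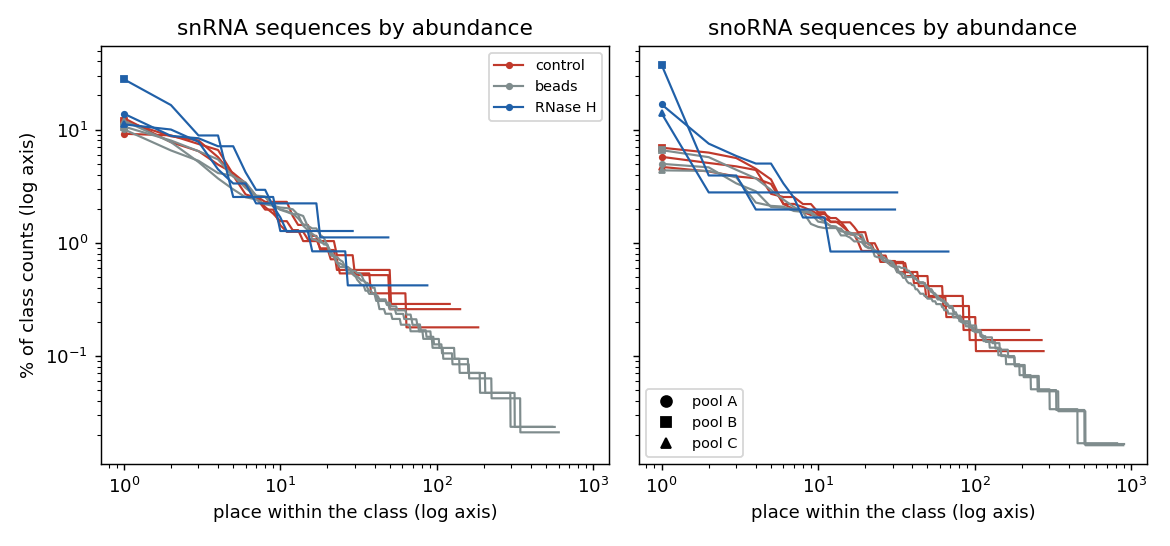
Share of class counts held by each snRNA (left) and snoRNA (right) sequence, in percent, against its place in the class by abundance, both on log axes; lines are libraries coloured by group, and the first symbol marks the most abundant sequence (shape, serum pool). The leading snRNA sequence holds 9.17% to 12.6% in control and beads libraries and the leading snoRNA sequence 4.35% to 6.91%, while in the RNase H library of pool B they hold 27.8% and 37.3%.

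Sequences with at least 10 counts numbered 6, 9 and 7 for snRNA and 11, 19 and 17 for snoRNA in control libraries. In beads libraries they numbered 61, 51 and 74 for snRNA and 108, 109 and 110 for snoRNA. No control or RNase H library listed a sequence of either class with 100 counts or more, while each beads library listed 8 or 9 for snRNA and 8 to 10 for snoRNA. RNase H libraries listed 6, 2 and 1 snRNA and 1, 1 and 0 snoRNA sequences with at least 10 counts. Numbers above a fixed count depend on depth, and class counts were 4262 to 6202 in beads, 349 to 912 in control and 36 to 239 in RNase H libraries.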

How the data were processed

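The authors trimmed adapters with cutadapt (1.8.1), mapped reads to GRCm38 with Bowtie (1.1.2) and assigned each read a class by position. Each library has 2 deposited tables of raw counts, 1 for mature miRNAs and 1 for distinct sequences of other classes. They were not normalised. Requiring annotation leaves other reads out, so shares refer to annotated counts. By the paper's mean mapped reads, the part left out was larger in the depleted groups than in control.

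Group and pool came from the labels. Group means were compared with two-sided exact permutation tests over 20 assignments (SciPy 1.17.1). Class sums were tested beside all miRNAs with edgeR 4.0.16 (filterByExpr, TMM on miRNAs, quasi-likelihood, threshold of 0.05), and with DESeq2 1.42.0 as an alternative. The fits were tested on simulated data. Distinct sequences at equal depth are hypergeometric expectations. Pools pair the libraries, per the labels. Deviations from group means over 71 miRNAs correlated at 0.626, 0.442 and 0.126 in pools A, B and C for beads and control, and at 0.00458, -0.203 and 0.169 for RNase H and control. No replicate pair agreed within sampling noise (chi-square per degree of freedom of at least 1.50). Sequences were to be named only as the 3 most abundant of a class, by rank and count. Members, lists and tests were chosen with earlier results of these data known. Ratios to piRNA, and counts including sequences annotated as both piRNA and a class, were added after seeing the data.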

Additional observations from a re-analysis of the deposited data

Results flagged for a closer look

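Some sequences were annotated as both piRNA and snoRNA, and they were left out of all sums above. They held 3, 9 and 7 counts in beads pools A, B and C, with a mean of 6.33, against 1, 1 and 0 in control libraries (mean 0.667) and 3, 1 and 1 in RNase H libraries. They are given here because they belong to no measured class and lay above the control level in beads libraries. The mean raw count of snoRNA itself was 8.15 times as high in beads as in control libraries. piRNA held 36850 to 45331 counts in beads libraries against 3528 to 5262 in control libraries. With these sequences included, and the corresponding ones for snRNA, the snoRNA to snRNA ratio was 1.73 ± 0.130 in control, 1.37 ± 0.0614 in beads and 0.528 ± 0.124 in RNase H libraries (SD, n = 3 each).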

How the results depend on the processing

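For 29 results, 205 alternative values were computed. The permutation tests cannot pass 0.05 at this size, so for them only the direction could change and nothing follows about their stability. The direction turned in 11 values, and 2 edgeR values crossed the threshold. Without sequences counted once, the RNase H minus control difference in snoRNA was 0.0181 percentage points of annotated counts (0.0589 with them) and 13.3 for each 1000 miRNA counts (35.4 with them). Leaving them out takes more from libraries with few snoRNA counts. Several directions turned with the denominator. For beads against control, the difference in snoRNA for each 1000 piRNA counts was -24.8. For RNase H against control it was -121 (snRNA) and -290 (snoRNA) for each 1000 rRNA counts and -98.3 and -172 for each 1000 piRNA counts, and the difference in snoRNA share without tRNA was -0.176 percentage points. Draws of equal annotated counts gave 28.7 more snRNA and 17.5 more snoRNA sequences in RNase H libraries, which follows from the larger class shares there. Without thinning, the RNase H libraries listed fewer snoRNA than snRNA sequences (-11.3), on fewer snoRNA counts.

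Leaving out 1 pool at a time, the beads minus control difference ranged from -2.66 to 8.49 in distinct snRNA sequences, negative without pool A, and from -0.973 to 0.110 percentage points in the share of the leading snRNA sequence, positive without pool B. The RNase H difference in that share ranged from 1.56 to 10.3 percentage points, lowest without pool B, and in distinct snRNA sequences from -10.8 to -3.30, the latter without pool B. The RNase H difference in distinct snoRNA sequences ranged from -4.70 without pool C to -0.936 without pool B. The RNase H ratio of snRNA counts ranged from 0.178 without pool A to 0.446 without pool B.

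In edgeR, snoRNA in beads libraries passed the threshold with the pool as a block (0.20) and with all annotated counts as library size (3.47). The latter moved the median of the miRNAs from 0.08 to 3.36 on the log2 scale, and for RNase H from -0.26 to -1.71 (0.04 with DESeq2 size factors). The block changed no other call of either class. It gave 88 calls for beads and 16 for RNase H. Calls among all features numbered 81 for beads (56 higher), 84 by DESeq2 (48 higher) and 337 with all annotated counts as library size (336 higher). For RNase H they numbered 20, with 37 by DESeq2, 31 in a fit of all 9 libraries, 65 with all annotated counts and 13 without pool B. Of the 20, 13 were higher, against 29 of 37 by DESeq2, 13 of 31 in the joint fit and 8 of 65 with all counts. Depth limits the RNase H values, where a class held as few as 36 counts.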
